A study of Sus scrofa with 19 samples.

Results

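Mitochondrial fatty acid beta-oxidation was represented by 10 genes in the *longissimus dorsi* (LD) muscle of Duroc pigs (longissimus thoracis et lumborum in the labels), measured with the GeneChip Porcine Genome Array. They are *CPT2* and *SLC25A20*, which complete the entry of fatty acids into the mitochondrion, the acyl-CoA dehydrogenases *ACADS*, *ACADM*, *ACADL* and *ACADVL*, and *HADHA*, *HADHB*, *ECHS1* and *HADH*, which carry out the later steps of each cycle. Every probe set to which the platform annotation gives exactly 1 gene symbol, that symbol being one of the 10, was taken, without regard to its values. The 10 genes themselves were chosen with earlier results of these data known. This gave 13 probe sets of the 23999 analysed, with 3 probe sets for *HADHB*, 2 for *ACADVL* and 1 for each of the other 8 genes.

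The 19 samples, 1 array each, came from Duroc barrows (castrated males) of a commercial line made up of half-sib families, slaughtered at 190 days of age and fed a commercial pellet diet. Carcass, plasma and muscle records on 13 traits of fat deposition and composition were used to rank 350 pigs, and the labels place 10 pigs at the upper end (HIGH) and 9 at the lower end (LOW) of that ranking. No pig received a treatment, both groups share breed, sex, age and diet, and no batch, family or scan date is given per pig. The pigs are separate animals, named below by the numbers in their titles, and these numbers do not repeat between groups.

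Beta-oxidation shortens a fatty acid by repeated cycles of dehydrogenation, hydration, a second dehydrogenation and thiolysis, each cycle releasing acetyl-CoA and reduced cofactors for the respiratory chain. The acyl-CoA dehydrogenases differ in the chain length that they prefer, and HADHA and HADHB are the alpha and beta subunits of the mitochondrial trifunctional protein, which handles long chains at the inner membrane. In skeletal muscle the pathway is a main route by which stored and circulating fat is used as fuel.

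Values are log2 signals per probe set, normalized by the authors with GCRMA. Array medians ran from 3.43 to 3.59, the lowest correlation between any pair of arrays was 0.970, and HIGH pig 1536 had the highest median. The 17 tag control probe sets, which carry no porcine gene, averaged 2.11. RNA integrity was read from 3 control transcripts as their 3' minus 5' log2 signal, whose mean ran from 0.86 to 1.20 in HIGH and from 0.77 to 1.61 in LOW, where LOW pig 1444 had the highest value. All 9 skeletal muscle markers measured, of a list of 12, lay above every tag control on all arrays, with a mean log2 signal of 14.74 ± 0.04 (SD, n = 10) in HIGH and 14.75 ± 0.03 (SD, n = 9) in LOW. Probe sets differ in affinity, so the levels of different genes are not compared.

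Of the 13 beta-oxidation probe sets, 12 lay above all tag controls on all 19 arrays. *CPT2*, which encodes carnitine palmitoyltransferase II of the inner mitochondrial membrane, was the exception. Its log2 signal was 2.72 ± 0.13 (SD, n = 19) and lay above the tag controls on 18 arrays. It ran from 2.22 to 2.91 in HIGH (median 2.74) and from 2.72 to 2.79 in LOW (median 2.74). At this level the probe set says little about *CPT2* expression. *SLC25A20*, the carnitine-acylcarnitine translocase, had a log2 signal from 7.97 to 8.80 in HIGH (median 8.48) and from 8.16 to 8.95 in LOW (median 8.36). For *CPT2* all LOW pigs lay within the wider HIGH range, and for *SLC25A20* the groups overlapped over most of their ranges.

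Among the acyl-CoA dehydrogenases, *ACADM*, the medium-chain enzyme, had a log2 signal from 12.16 to 13.24 in HIGH (median 12.95) and from 11.79 to 13.25 in LOW (median 12.48). *ACADL*, the long-chain enzyme, ran from 7.85 to 9.30 in HIGH (median 8.72) and from 7.65 to 9.11 in LOW (median 8.42). For both genes 8 of the 10 HIGH pigs lay above the LOW mean, and LOW pig 2172 had the lowest signal of all 19 pigs. *ACADS*, the short-chain enzyme, ran from 7.08 to 8.57 in HIGH (median 8.18) and from 7.39 to 8.56 in LOW (median 8.32). *ACADVL*, the very long-chain enzyme, had on probe set Ssc.16637.1.S1_at a log2 signal from 9.63 to 10.28 in HIGH (median 9.90) and from 9.78 to 10.28 in LOW (median 9.92). On its other probe set, Ssc.21669.1.S1_at, the signal ran from 7.61 to 8.87 in HIGH (median 8.50) and from 7.41 to 8.86 in LOW (median 8.48). None of these probe sets separated the groups.

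*HADHA*, which carries the hydratase and long-chain 3-hydroxyacyl-CoA dehydrogenase activities, had a log2 signal from 9.92 to 10.54 in HIGH (median 10.06) and from 10.09 to 10.83 in LOW (median 10.39). *HADHB*, which carries the thiolase activity, ran on probe set Ssc.11785.1.A1_at from 10.12 to 11.46 in HIGH (median 11.002) and from 10.22 to 11.14 in LOW (median 10.68). Thus 8 of 10 HIGH pigs lay below the LOW mean for the alpha subunit and 9 of 10 above it for the beta subunit. On the *HADHB* probe set Ssc.11785.2.A1_at the signal ran from 9.79 to 11.33 in HIGH (median 10.61) and from 10.18 to 10.89 in LOW (median 10.37). On Ssc.23043.1.S1_at it ran from 9.28 to 10.68 in HIGH (median 10.17) and from 9.49 to 10.52 in LOW (median 9.78). HIGH pig 1536 had the lowest signal of all pigs on each of the 3 *HADHB* probe sets, and also on *ACADS*.

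*ECHS1*, the short-chain enoyl-CoA hydratase, had a log2 signal from 11.31 to 11.87 in HIGH (median 11.71) and from 11.50 to 12.18 in LOW (median 11.82), and 9 of 10 HIGH pigs lay below the LOW mean. *HADH*, the 3-hydroxyacyl-CoA dehydrogenase of short and medium chains, ran from 11.32 to 11.76 in HIGH (median 11.51) and from 11.14 to 11.83 in LOW (median 11.62). The spread over the 19 pigs was widest for *ACADL* (SD 0.45), the second *ACADVL* probe set (0.44), *ACADS* (0.44) and *ACADM* (0.42), which exceeded 76.0%, 75.8%, 75.5% and 71.9% of the probe sets above background on all arrays. Of the probe sets above background the narrowest were *HADH* and the first *ACADVL* probe set (SD 0.21 each), which exceeded only 28.0% and 28.1% of them.

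**Figure D1:**
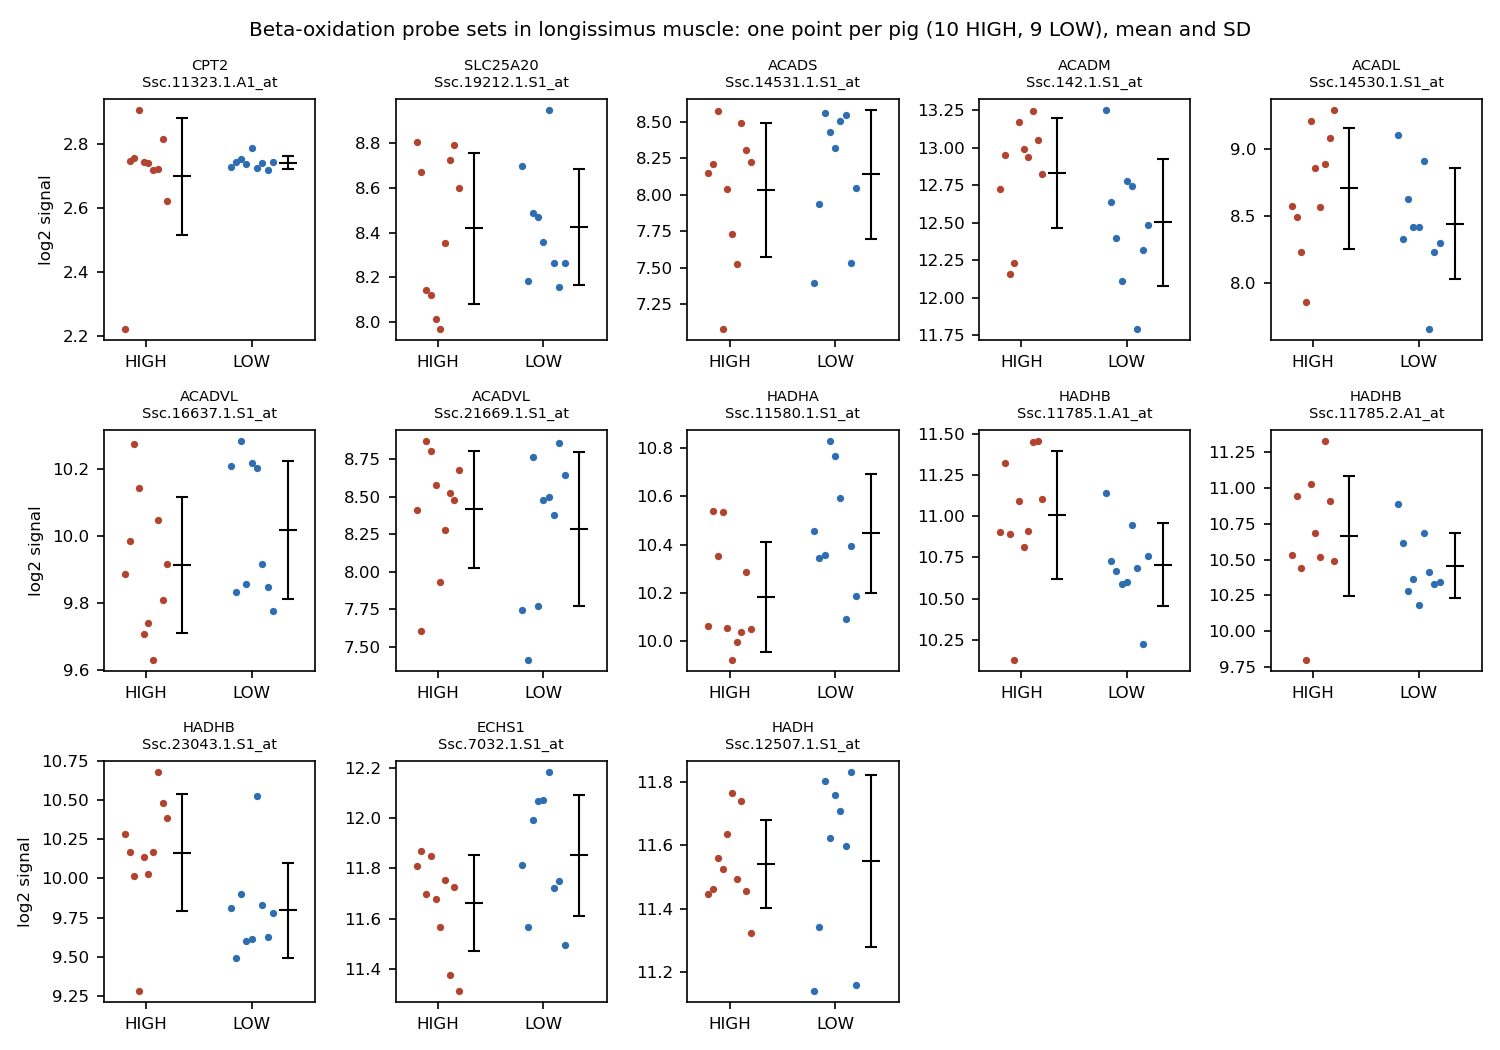
Log2 signal (y axis, its own scale in each panel) of the 13 probe sets in 10 HIGH (red) and 9 LOW (blue) pigs, 1 point per pig, with the mean and SD beside the points. HIGH and LOW pigs overlap in all 13 panels. HIGH pig 1536 is the single low point among the HIGH pigs for HADHB on Ssc.11785.1.A1_at (10.12), and LOW pig 2187 lies near it (10.22).

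HIGH and LOW were compared with limma, fitted with a mean-variance trend on all probe sets, to ask whether the pathway differs with the fattening level of the pigs. No beta-oxidation probe set passed the threshold of 0.05 on the Benjamini-Hochberg adjusted p (0 of 13, against 0 of 23999 or 0.0% of all probe sets, where the smallest adjusted p was 0.993). An unadjusted p under 0.05 was found for 2 of the 13, against 843 or 3.51% of all probe sets. In limma with unadjusted p, 1 of these was higher in HIGH, where 1.87% of all probe sets were, and 1 was lower, where 1.64% were. With each array centred on its median, the split over all probe sets was 344 higher and 619 lower, against 449 and 394 here. With so few members this is a description and no result on the pathway. In bulk tissue such as this, fewer cells of a type and less RNA per cell cannot be told apart. The limma p-values set each difference of means against the spread between pigs. The mean was higher in HIGH for 6 of the 13 probe sets and lower for 7, with a median log2 difference of -0.01, as over all probe sets (-0.01). This count holds *HADHB* 3 times. With 1 probe set per gene, that of highest mean signal, 3 of the 10 genes were higher and 7 lower (median -0.03). Over all 6765 named genes 3342 were higher and 3423 lower (median -0.0011).

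The 2 probe sets with the smallest unadjusted p belong to the 2 subunits of the trifunctional protein and lay in opposite directions. *HADHA* averaged 10.18 ± 0.23 (SD, n = 10) in HIGH and 10.45 ± 0.25 (SD, n = 9) in LOW. Its log2 difference was -0.26 (SE 0.11, 95% interval -0.49 to -0.03), and in limma p was 0.0280 before and 0.993 after adjustment. *HADHB* on Ssc.23043.1.S1_at averaged 10.16 ± 0.37 in HIGH and 9.80 ± 0.30 in LOW, a log2 difference of 0.37 (SE 0.15, interval 0.04 to 0.69), for which limma gave p = 0.0275 before and 0.993 after adjustment. The other *HADHB* probe sets were also higher in HIGH on average, by 0.30 (interval -0.01 to 0.61) and 0.21 (interval -0.11 to 0.53), with unadjusted p of 0.0551 and 0.186 from limma.

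The remaining differences were as follows. *ACADM* averaged 0.33 higher in HIGH on the log2 scale (interval -0.03 to 0.69, unadjusted p = 0.0698 from limma). *ACADL* averaged 0.26 higher (interval -0.14 to 0.67, unadjusted p = 0.190 from limma). *ECHS1* had a log2 difference of -0.19 (interval -0.39 to 0.02, unadjusted p = 0.0742 from limma). Each of these 3 differences was smaller than the SD between pigs in either group. *ACADS* (-0.11), *ACADVL* (-0.10 and 0.13 on its 2 probe sets), *CPT2* (-0.04), *HADH* (-0.01) and *SLC25A20* (-0.01) had intervals that span 0. The widest limits of the 13 intervals were a 1.61-fold higher and a 1.44-fold lower signal in HIGH, so mean differences beyond these lie outside the 95% interval of every probe set. Single arrays weighed on the values: without HIGH pig 1536 the log2 difference of *HADHB* on Ssc.11785.1.A1_at was 0.40 and that of *ACADM* 0.39, for which limma gave unadjusted p of 0.0031 and 0.0294 and, for both, 0.645 after adjustment. Without LOW pig 1444 the log2 difference of *ACADM* was 0.42 (unadjusted p = 0.0156 from limma, 0.994 after adjustment).

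**Figure D2:**
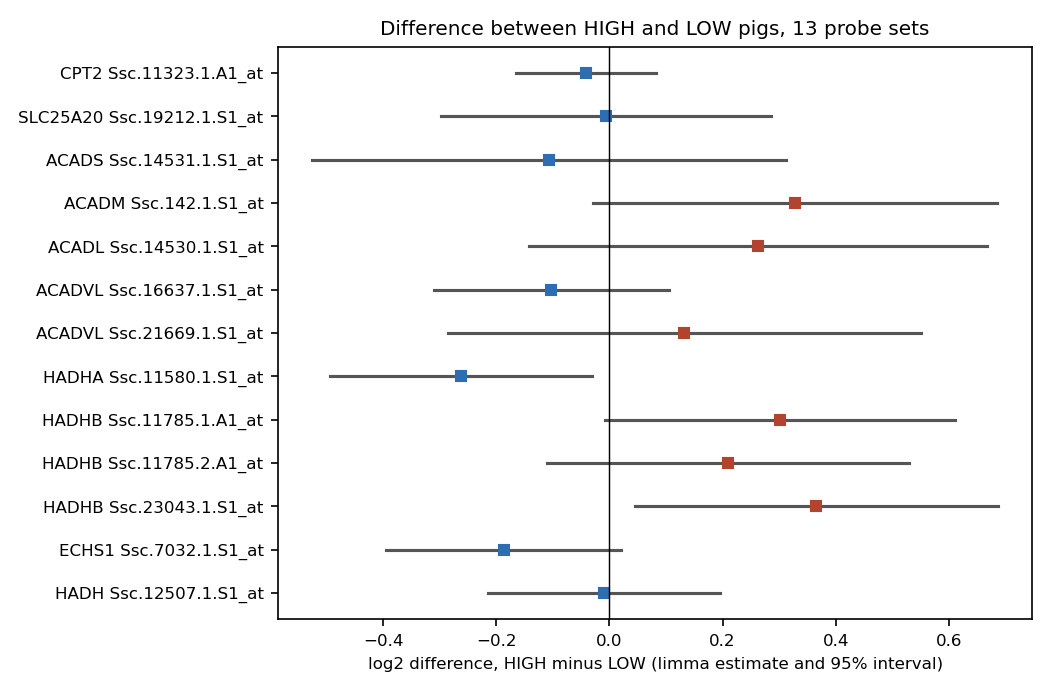
Estimated log2 difference of HIGH minus LOW (x axis) from limma for each of the 13 probe sets, with its 95% interval as a line; red squares are above 0 and blue squares below. The intervals of HADHA (-0.49 to -0.03) and of HADHB on Ssc.23043.1.S1_at (0.04 to 0.69) are the 2 that do not reach 0, before adjustment over all probe sets.

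Probe sets of the same gene gave a check on the measurement. The 3 *HADHB* probe sets followed each other over the 19 pigs with Pearson's r of 0.88, 0.82 and 0.71 (Spearman's rho 0.87, 0.82 and 0.68), each with an adjusted permutation p of 0.00071 or less over the 4 relations of this kind. Without the 2 pigs farthest from the median, the r were 0.86, 0.76 and 0.50. The 2 *ACADVL* probe sets did not follow each other beyond the spread (r = 0.23, rho = 0.28, permutation p = 0.334), and r was 0.04 without the 2 farthest pigs. A statement on *ACADVL* therefore holds for 1 probe set and not for the gene.

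Co-variation of the 10 genes was examined over the 19 pigs, taking for each gene the probe set of highest mean signal, in 45 pairs with a two-sided permutation test (100000 resamples). The r ran from -0.38 to 0.82 with a median of 0.11, and 26 of 45 pairs were positive. After adjustment over the 45 pairs, 4 passed, all of them positive. Of these, 3 joined *ACADM*, *ACADL* and *HADHB*, and 1 joined *HADHA* and *ECHS1*. With the values as deposited the genes thus did not rise and fall together as 1 group over the 19 pigs. The sign of r could differ between the groups. *ACADL* with *HADHA* had -0.63 in HIGH and 0.46 in LOW, and *ACADL* with *ECHS1* had -0.64 and 0.44. These pairs were picked after the values were seen, and the difference between groups was not tested. The 45 pairs include those of *CPT2*, near background, and of *ACADVL*, whose probe sets did not follow each other, which limits the count and the median.

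*ACADM* and *ACADL* were the pair with the highest correlation (r = 0.82, permutation p = 2e-05, adjusted p = 0.0009, and rho = 0.79, permutation p = 0.00015). The r was 0.77 in the 10 HIGH pigs, 0.84 in the 9 LOW pigs and 0.78 without the 2 pigs farthest from the *ACADM* median. *ACADM* and *HADHB* followed each other less closely (r = 0.71, adjusted permutation p = 0.0098, and rho = 0.79), with r of 0.72 in HIGH (permutation p = 0.0176) and 0.60 in LOW (exact permutation p = 0.0809). This call depended on the *HADHB* probe set, since on Ssc.23043.1.S1_at r was 0.56 (adjusted permutation p = 0.121). *ACADL* and *HADHB* had r = 0.69 (adjusted permutation p = 0.0104, rho = 0.74), with 0.69 in HIGH (permutation p = 0.0258) and 0.60 in LOW (exact permutation p = 0.0797). This last pair rested on 1 pig for its call, since r was 0.62 with an adjusted permutation p of 0.0698 without HIGH pig 1536. Without the 2 farthest pigs the r of these pairs were 0.76 and 0.75.

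*HADHA* and *ECHS1*, whose products both hydrate enoyl-CoA, had r = 0.75 (adjusted permutation p = 0.0063, rho = 0.79). The r was 0.58 in HIGH (permutation p = 0.0713), 0.77 in LOW (exact permutation p = 0.018) and 0.70 without the 2 pigs farthest from the *HADHA* median. The next pairs did not pass with the values as deposited. *SLC25A20* with *HADHB* had r = 0.57 (adjusted permutation p = 0.109), but passed with values centred within groups (r = 0.63, adjusted permutation p = 0.0418) and with each array centred on its median (r = 0.62, adjusted permutation p = 0.0438). *ACADVL* with *HADHA* had r = 0.54 (adjusted permutation p = 0.142). This is read from the *ACADVL* probe set with the higher mean, and r was 0.06 when the mean of both *ACADVL* probe sets was used.

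*HADHA* and *HADHB* are neighbours on chromosome 3 in the RefSeq annotation of Sscrofa11.1, with 0 protein-coding genes between them, and their products are built into the same protein complex. Across the pigs they had r = -0.33 (permutation p = 0.164) and rho = -0.37 (permutation p = 0.116), and after adjustment over the 45 pairs the p was 0.4926. The r was -0.22 in HIGH and -0.03 in LOW (permutation p = 0.544, and exact permutation p = 0.935 in the 9 LOW pigs), and -0.32 without the 2 farthest pigs. On the other *HADHB* probe sets the r with *HADHA* was -0.35 (Ssc.11785.2.A1_at, permutation p = 0.139) and -0.46 (Ssc.23043.1.S1_at, permutation p = 0.0482), with adjusted permutation p of 0.482 and 0.288, and for the mean of the 3 it was -0.41 (permutation p = 0.0795). The r was thus negative on each probe set over the 19 pigs and did not pass adjustment on any. Within a pig, the *HADHB* minus *HADHA* log2 signal ran from -0.41 to 1.41 in HIGH (median 0.90) and from -0.24 to 0.69 in LOW (median 0.36). HIGH pig 1536 was the lowest of its group at -0.41, and the other 9 HIGH pigs had 0.96 ± 0.25 (SD). This within-pig difference was looked at after the values were seen and is given with no test.

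**Figure D3:**
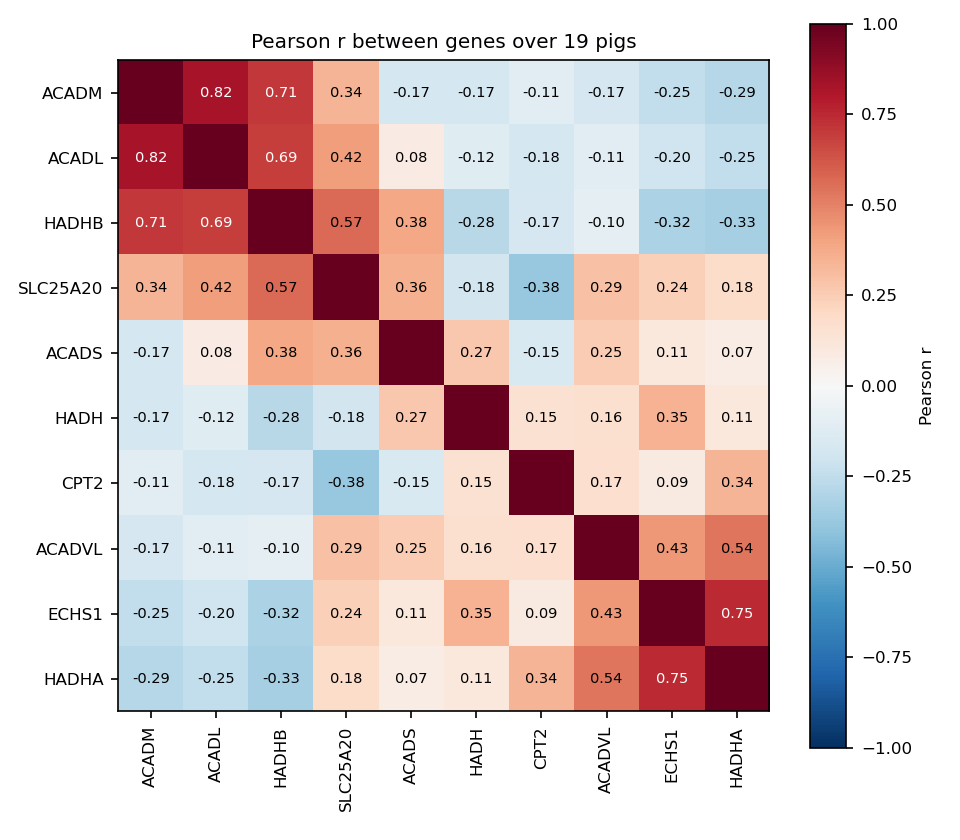
Pearson's r over 19 pigs for each pair of the 10 genes (colour from -1 in blue to 1 in red, value in each cell), both axes listing the genes. ACADM, ACADL and HADHB form a block with r from 0.69 to 0.82, HADHA and ECHS1 have 0.75, and HADHA has negative values with the first 3 genes.

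**Figure D4:**
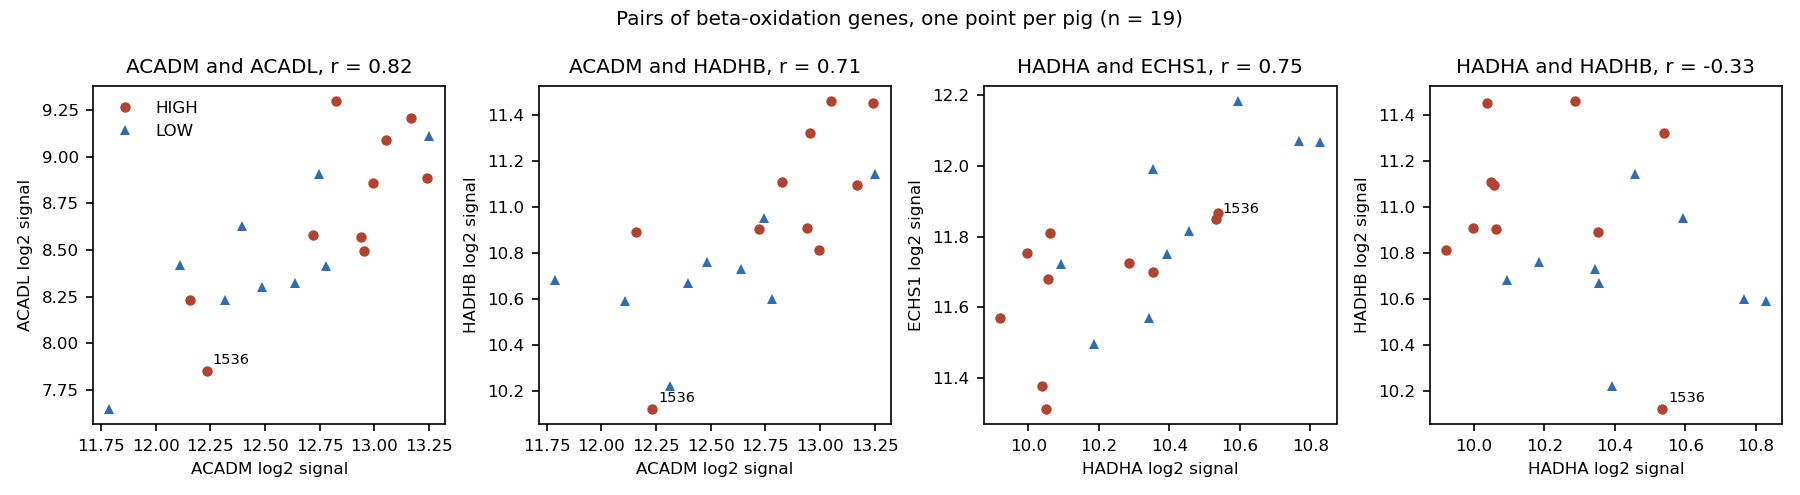
Log2 signals of 4 gene pairs, 1 point per pig, with HIGH as red circles and LOW as blue triangles; pig 1536 is marked. ACADM with ACADL (r = 0.82), ACADM with HADHB (0.71) and HADHA with ECHS1 (0.75) rise together over the 19 pigs, and HADHA with HADHB (-0.33) do not.

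Variation shared across the array moved with these pairs. The first principal component of all other probe sets held 18.7% of their variance and had r of -0.81 with *ACADL*, -0.79 with *HADHB* and -0.74 with *ACADM*, with adjusted permutation p of 0.0017, 0.00297 and 0.00623 over 170 relations. For *HADHA* and *ECHS1* the r was 0.54 and 0.42, which did not pass. Without the 2 farthest pigs the first 3 values were -0.81, -0.70 and -0.84. When each gene was taken as its residual on this component, only *HADHA* with *ECHS1* passed (r = 0.68, adjusted permutation p = 0.0491). *ACADM* with *ACADL* then had r = 0.55 (adjusted p = 0.137), *ACADM* with *HADHB* 0.29 and *ACADL* with *HADHB* 0.13, and *HADHA* with *HADHB* had 0.18. On these residuals 37 of the 45 pairs were positive with a median r of 0.18, against 26 and 0.11 with the values as deposited. High r values were also common outside the pathway: of 5339 other named genes above background on all arrays, 9.85% had an absolute r over 0.6 with *ACADL*, 7.72% with *ACADM*, 7.08% with *HADHB* and 0.468% with *ACADS*. The array median and the 3' minus 5' signal had no relation to any of the 10 genes that passed adjustment (r from -0.49 to 0.40 and from -0.34 to 0.26). The first principal component was mostly negative in HIGH (-33.9 to 50.6) and mostly positive in LOW (-19.1 to 31.2), with overlap. Its part in the differences between HIGH and LOW was not tested.

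The genes whose pattern was most like the average of the 10 were sought among these 5339. The measure was Pearson's r with the mean z-score of the 10 genes over the 19 pigs. This average includes *CPT2*, near background, and joins genes that did not rise and fall together as 1 group with the values as deposited. The 5 highest were *PPP1R3B*, a glycogen-targeting subunit of protein phosphatase 1 (r = 0.76), *NEU1*, a lysosomal sialidase (0.76), *HES1*, a transcriptional repressor (0.74), *ATP5O*, a subunit of the mitochondrial ATP synthase (0.72), and *CAT*, the catalase (0.71). The 5 lowest were *DHX9* (-0.71), *CPEB4* (-0.71), *MACF1* (-0.71), *CNOT6L* (-0.70) and *NUDT4* (-0.68). Centred within groups, these r stayed between 0.71 and 0.77 and between -0.72 and -0.68. Picked as extremes of many genes, they are descriptions with no test.

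Gene by gene, the closest pattern to *ACADM* was that of *PHAX*, an adaptor of small nuclear RNA export (r = 0.90), and to *ACADL* that of *CCPG1*, a receptor of endoplasmic reticulum autophagy (0.87). *HADH* was closest to *SLC25A12*, the mitochondrial aspartate/glutamate carrier (0.89), and *ACADVL* to *PHB2*, a mitochondrial prohibitin (0.78). *ECHS1* was closest to the homeobox gene *PKNOX2* (0.86), *HADHA* to the myosin gene *MYO1C* (0.82), *SLC25A20* to *HSBP1* (0.82) and *ACADS* to the chemokine receptor gene *CXCR4* (0.75). *HADHB* was closest to *LOC100516606* (0.84), which has no assigned name, and *CPT2*, near background, to *CKMT1A* (0.87). The 10 genes themselves were left out of this search.

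Other genes of fatty acid oxidation were read from lists, in the same limma fit and with 1 probe set per gene. None of their genes passed the adjusted threshold or had an unadjusted p under 0.05 in limma. Of the carnitine shuttle and fatty acid uptake genes 13 of 16 were measured, 3 with a higher and 10 with a lower mean in HIGH (median log2 difference -0.03). *CPT1B*, the muscle isoform that commits fatty acids to the mitochondrion, averaged 7.78 ± 0.56 (SD, n = 10) in HIGH and 7.45 ± 0.70 (SD, n = 9) in LOW (unadjusted p = 0.237 from limma). *ACSL1* and *ACSL4*, which activate fatty acids, had log2 differences of -0.13 and 0.23. Of the 13 measured genes, 10 lay above background on all arrays and *CPT1C* and *ACSL6* on 0, so the counts include genes at background. Of the auxiliary enzymes of the mitochondrial pathway 16 of 20 were measured, 11 higher and 5 lower on average (median 0.10). *ACOT13*, a mitochondrial acyl-CoA thioesterase, had the smallest p of them (log2 difference 0.25, interval -0.02 to 0.52, unadjusted p = 0.0677 from limma). *DECR1*, a reductase for unsaturated chains, had 0.26, the thiolase gene *ACAA2* 0.14 and the propionyl-CoA carboxylase gene *PCCA* -0.18.

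Of the peroxisomal beta-oxidation genes 9 of 15 were measured, 7 higher and 2 lower on average (median 0.14). *HSD17B4*, the peroxisomal multifunctional enzyme, had a log2 difference of 0.25 (interval -0.02 to 0.51), *ACOX3* 0.29, *SCP2* 0.22 and the transporter gene *ABCD3* -0.17. Of the transcriptional and metabolic regulators 17 of 24 were measured, 9 higher and 8 lower (median 0.0041). Of these 17, 13 lay above background on all arrays and *PPARA*, *UCP2* and *ACACA* on 0, so the counts and the median include genes at background. *UCP3*, a mitochondrial carrier of muscle, averaged 9.22 ± 0.90 in HIGH and 9.85 ± 0.50 in LOW, a log2 difference of -0.63 (interval -1.29 to 0.04, unadjusted p = 0.0633 from limma). The retinoid receptor gene *RXRG*, *ANGPTL4* and the AMP-activated kinase subunit gene *PRKAA2* had -0.42, -0.58 and -0.25. The tricarboxylic acid cycle had 7 of 17 measured genes higher and 10 lower (median -0.02), with *IDH3G* at -0.26, *OGDH* at -0.22, *IDH2* at -0.17 and *SUCLA2* at 0.18. Glycolysis had 0 of 9 higher and 9 lower (median -0.06), with *PFKM* at -0.18, *GPI* at -0.19, *PGAM2* at -0.08 and *ENO3* at -0.05. *PFKM* ran from 12.82 to 14.18 in HIGH and from 13.86 to 14.24 in LOW, and *GPI* from 12.54 to 13.85 and from 13.15 to 14.02. The differences of *PFKM* and *GPI* were smaller than their SD in HIGH (0.39 and 0.38). For both, the lowest HIGH signal lay below that of every LOW pig, and such values weigh on the means. Over all 6765 named genes the median was -0.0011, with 3342 higher and 3423 lower. These lists are described by their counts alone.

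The mean z-score of each list, over its genes above background on all arrays, was set against each of the 10 genes. *HADHB* followed the 9 peroxisomal genes (r = 0.70, rho = 0.63, adjusted permutation p = 0.0199 over the 170 relations, and r = 0.63 without the 2 farthest pigs), and *ACADL* and *ACADM* had 0.62 and 0.60, which did not pass. *HADH* followed the 17 tricarboxylic acid cycle genes (r = 0.75, rho = 0.63, adjusted permutation p = 0.00623, 0.73 without the 2 farthest pigs) and the 7 fast fibre genes (r = 0.66, rho = 0.66, adjusted permutation p = 0.0399, 0.72 without them). *ACADL* ran opposite to the 9 glycolysis genes (r = -0.66, rho = -0.61, adjusted permutation p = 0.0304, -0.58 without the 2 farthest pigs). With Spearman's rho the adjusted permutation p of these 4 relations, in the order given, were 0.0694, 0.0694, 0.054 and 0.0716, which do not pass. The slow fibre genes had r from -0.21 to 0.49 with the 10 genes, and none passed. These r give likeness of pattern over 19 pigs, and the part of fibre type in the levels was not tested.

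Markers of other cells in the muscle were read in the same way. Of 16 adipocyte markers 12 were measured and 7 lay above background on all arrays, with *LEP* on 0 arrays. Their mean log2 signal ran from 6.60 to 8.10 in HIGH (median 7.24) and from 5.68 to 7.62 in LOW (median 6.58), and 4 of the 12 had an unadjusted p under 0.05 in limma, all higher in HIGH, against 195 of the 6765 named genes, and 0 passed after adjustment. The r of this list with *ACADM*, *ACADL* and *HADHB* was 0.09, 0.07 and 0.03, with *HADH* 0.48 and with *ACADVL* -0.45, none of which passed. Macrophage markers (10 of 14 measured, 6 above background on all arrays, *ITGAM* and *MARCO* on 0) ran from 5.03 to 6.53 in HIGH and from 5.05 to 6.38 in LOW, with r of -0.50, -0.46 and -0.51 with *ACADM*, *ACADL* and *HADHB*, which did not pass. Endothelial markers (8 of 10 above background, *KDR* and *TIE1* on 0) ran from 5.79 to 6.58 and from 5.78 to 6.44, and fibroblast markers (8 of 10 above background) from 7.22 to 8.51 and from 6.83 to 8.34. With the endothelial list *CPT2* had rho = 0.69, which passed (adjusted permutation p = 0.0335). Its r was 0.35, which did not pass (adjusted permutation p = 0.414), and its probe set is near background.

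Of the blood list, 3 of 6 genes measured, only *HBB*, the beta globin gene, lay above background on all arrays, while *AHSP* was above it on 0. *HBB* had a log2 signal from 6.18 to 7.49 in HIGH (median 7.19) and from 6.498 to 7.73 in LOW (median 6.79). It followed *ACADL* (r = 0.84, rho = 0.88, adjusted permutation p = 0.0017, 0.86 without the 2 farthest pigs) and *ACADM* (r = 0.82, rho = 0.84, adjusted permutation p = 0.00283, 0.77 without them). With *HADHB* it had r = 0.63 and rho = 0.72, of which rho passed (adjusted permutation p = 0.023) and r did not. The part of *HBB*, of the cell type markers and of the shared component in the co-variation of the beta-oxidation genes was not tested beyond the residuals above.

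**Figure D5:**
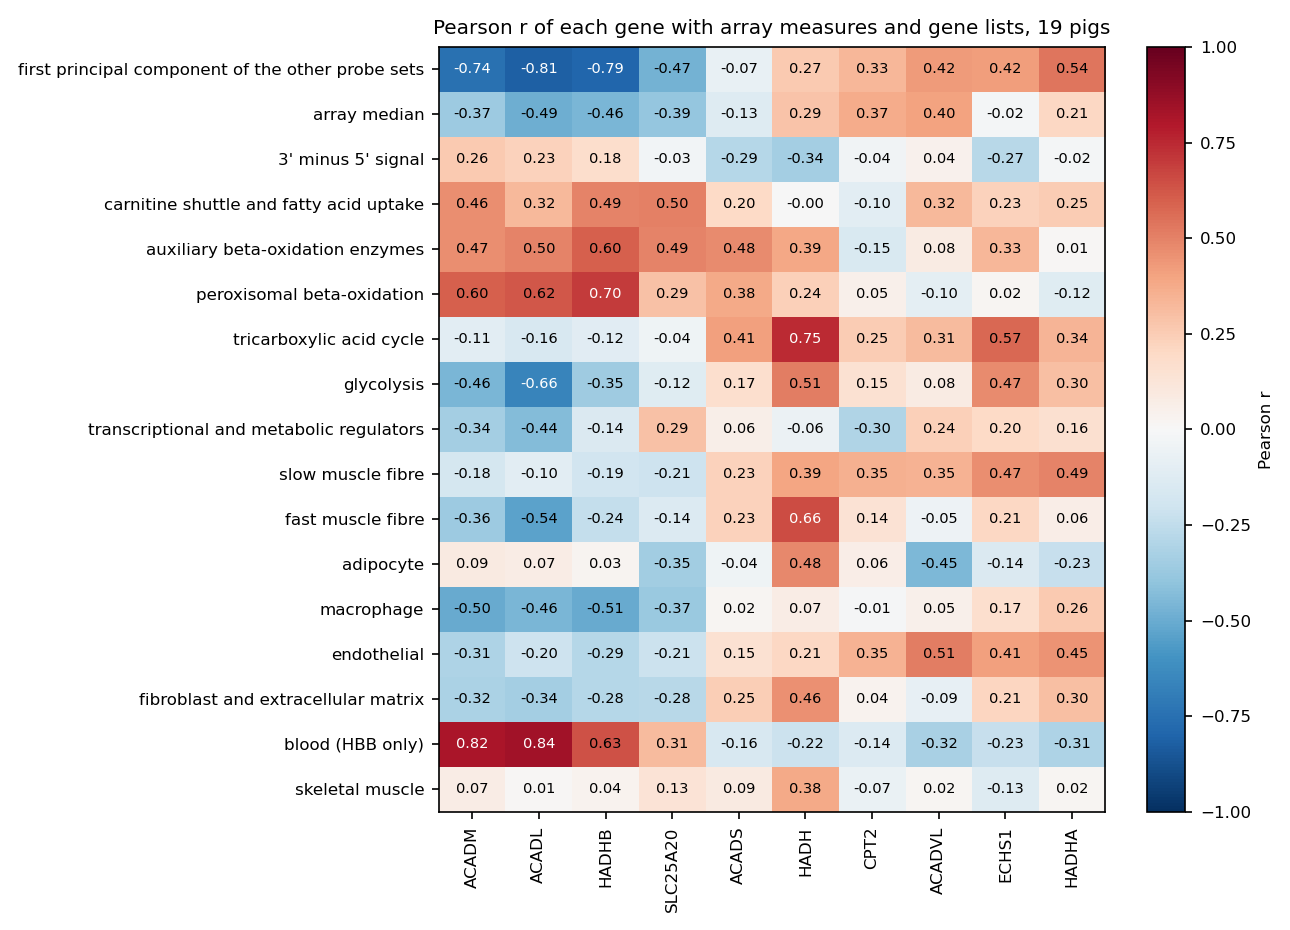
Pearson's r over 19 pigs of each of the 10 genes (columns) with 3 array measures and the mean z-scores of 14 gene lists (rows), coloured from -1 in blue to 1 in red with the value in each cell. ACADM, ACADL and HADHB have -0.74, -0.81 and -0.79 with the first principal component and 0.82, 0.84 and 0.63 with the blood row, which holds HBB alone.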

How the data were processed

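The deposited log2 signals were, per the labels, obtained by the authors with GCRMA (its version is not stated in the sources read). GCRMA takes probe sequence into account in the background. It puts the probe intensities of all arrays on 1 distribution before they are summarized per probe set. The methods text of the study names RMA instead. A second deposited table holds 4268 of the 24114 probe sets with the same log2 values, 6 of the 13 beta-oxidation probe sets among them. After removal of 115 controls, 23999 probe sets were tested with no filter on level. The annotation gives 1 symbol to 10069, several to 198 and none to 13732, and 9961 matched RefSeq. The number of arrays limits the precision.

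The linear models were fitted with limma (version 3.58.1, R 4.3.3) with eBayes and a trend of the variance on the mean, and p was adjusted by Benjamini-Hochberg over all probe sets. Correlations were tested by permutation in numpy 2.4.6, adjusted within each family. Both procedures were tested on simulated data. The members and lists were chosen with earlier results of these data known. Named were every probe set of the 10 genes, in each pathway list up to 4 genes with the smallest p, and the genes most similar in pattern. Sequences were not used here.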

Additional observations from a re-analysis of the deposited data

Results flagged for a closer look

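A single pig lay far from the rest of its group for 8 of the 32 combinations of measure and group, and about 1.6 are found by chance. These are not independent, since *HADHB* has several probe sets. HIGH pig 1536 had an array median of 3.59, above the other 9 HIGH pigs (3.47 ± 0.03, SD), the lowest *HADHB* signal on Ssc.11785.1.A1_at (10.12, the others 11.11 ± 0.25) and on Ssc.23043.1.S1_at (9.28, the others 10.26 ± 0.22), and the lowest *HADHB* minus *HADHA* value (-0.41). LOW pig 2157 had the highest *HADHB* signal of its group on Ssc.23043.1.S1_at (10.52, the other 8 at 9.71 ± 0.14). *CPT2*, near background, was at 2.22 in HIGH pig 1452 (the other 9 at 2.75 ± 0.08) and at 2.79 in LOW pig 1918, where the other 8 LOW pigs had 2.74 ± 0.01. The 3' minus 5' signal was 1.61 in LOW pig 1444, where the other 8 LOW pigs had 1.003 ± 0.15.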

How the results depend on the processing

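The count of 0 beta-oxidation probe sets past the adjusted threshold in limma held under every alternative run (no trend, a robust fit, array weights, median centring, quantile normalization, the 3' minus 5' signal as a covariate, a filter on level, the filtered table and leaving out each pig), and 2 of 13 and 843 of all 23999 had an unadjusted p under 0.05. Those 2 became 6 with array weights (2933 of all), 4 with the 3' minus 5' covariate (947 of all) and 3 with quantile normalization (974 of all). In the filtered table there were 0 of 6, against 310 of 4238. Without HIGH pig 1536 there were 5 (1638 of all), and without HIGH pig 1536 and LOW pig 1444 there were 6 (1948 of all). Leaving out any other single pig gave 1 to 4 (638 to 1157 of all). With array weights 5 of all 23999 passed, none of them beta-oxidation probe sets. The direction of 10 of the 13 differences held in every alternative. *SLC25A20* (-0.01) had a log2 difference of 0.0165 and *HADH* (-0.01) of 0.0598 with array weights. Leaving out 1 pig gave -0.0484 to 0.0596 for *SLC25A20*, -0.0619 to 0.0247 for *HADH* and -0.0647 to 0.0114 for *CPT2*. Leaving out HIGH pig 1536 and LOW pig 1444 together, an alternative chosen after the values were seen, gave 0.0616 for *SLC25A20* and passed no beta-oxidation probe set. Of the 45 gene pairs 4 passed, 3 to 5 when 1 pig was left out, 5 with values centred within groups or on the array median (*SLC25A20* with *HADHB* added), and 1 on residuals from the first principal component, where *HADHA* with *HADHB* turned to r = 0.18 (-0.33 with all pigs, -0.43 to -0.26 when 1 pig was left out). With *HADHB* taken from Ssc.23043.1.S1_at, also chosen after the values were seen, 3 pairs passed and *HADHA* with *HADHB* had r = -0.46 (permutation p = 0.0482 before adjustment over pairs). No paired analysis was possible because the pigs' numbers do not repeat between groups.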
